A study of Mus musculus with 7 samples.

Results

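The regions described here are the sites of REV-ERBα occupancy at promoters in mouse skeletal muscle. Overlapping peaks of the 2 REV-ERBα replicates were merged, which gave 1263 regions with a peak in both, and the 327 regions (25.9%) whose midpoint lay at most 1000 bp from the nearest transcription start site (TSS) of a protein-coding gene were kept as promoter regions. They were named after that gene and represent 323 gene identifiers, since *Ttn* has 4 regions and *Rnf44* has 2. Of the other 936 regions, 272 lay 1 to 10 kb from a TSS and 664 farther away.

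Chromatin immunoprecipitation followed by sequencing (ChIP-seq) recovers and sequences the DNA bound by a protein. It was performed on gastrocnemius, a calf muscle, of male wild-type C57BL/6J mice aged 5 months, with 2 replicates for each protein. The series holds 1 library of input DNA, while the study lists 2 input replicates. REV-ERBα was mapped at Zeitgeber time (ZT) 8 with antibodies that are not commercial, and BMAL1 together with RNA polymerase II (RNAP2) at ZT 4, where ZT counts hours from lights on. Hence the factors differ both in antibody and, for REV-ERBα, in time of day, and no muscle lacking REV-ERBα was analysed here.

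REV-ERBα, encoded by *Nr1d1*, is a nuclear receptor of the circadian clock that binds heme and represses transcription through the corepressor NCOR1 and the histone deacetylase HDAC3. It can bind DNA directly, at the core hexamer AGGTCA preceded by an A/T-rich stretch or at tandem copies of it, and it is also known to be recruited by other DNA-bound factors. BMAL1 is the activator of the same clock and binds E-boxes, with the consensus CACGTG, as a dimer with CLOCK. Binding of both factors to period and PAR bZIP genes is part of the feedback loop in muscle as in other tissues.

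The lists held 28881 peaks in replicate 1 and 29934 in replicate 2 of REV-ERBα. Those of BMAL1 held 34737 and 177669, and those of RNAP2 87870 and 168821. RNAP2 regions present in both replicates were found at the TSSs of 10 of 10 muscle fibre markers, and at 0 of 2 satellite cell, 0 of 3 endothelial, 0 of 3 macrophage, 0 of 2 adipocyte and 0 of 3 liver markers. Of the 2 fibroblast markers, *Col1a1* had such a region. An RNAP2 peak in only 1 replicate was listed at *Pax7* (satellite cell), *Cdh5* and *Kdr* (endothelial), *Pdgfra* (fibroblast), *Plin1* (adipocyte) and *Alb* (liver). Peaks on the X chromosome were scarce in all 6 lists (19 to 626 each, against 639 to 4270 on chromosome 19), and 1 promoter region lies on X, where 948 of the 21938 annotated protein-coding genes are located.

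To show the DNA beneath these peaks, the 201 bp around the summit of the stronger REV-ERBα peak are given for the strongest regions at clock genes and for the strongest at other genes, from the GRCm38 (mm10) genome and 5′ to 3′ on the strand of the gene. Capitals mark the nuclear receptor hexamer AGGTCA, the E-box CACGTG and the GC box GGGCGG on either strand. The windows of the clock genes are chr15:81810934-81811134 on the plus strand for *Tef*, chr7:45704131-45704331 on the plus strand for *Dbp*, chr3:95882374-95882574 on the minus strand for *Ciart*, chr1:91459434-91459634 on the minus strand for *Per2* and chr14:18238422-18238622 on the minus strand for *Nr1d2*.
Tef: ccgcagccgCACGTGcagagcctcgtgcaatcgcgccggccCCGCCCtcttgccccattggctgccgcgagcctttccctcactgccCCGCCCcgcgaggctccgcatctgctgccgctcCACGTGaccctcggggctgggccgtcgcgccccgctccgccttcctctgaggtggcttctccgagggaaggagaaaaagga
Dbp: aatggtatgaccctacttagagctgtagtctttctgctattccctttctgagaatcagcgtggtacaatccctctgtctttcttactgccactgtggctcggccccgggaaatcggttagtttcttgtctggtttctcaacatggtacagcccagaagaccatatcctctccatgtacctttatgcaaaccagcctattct
Ciart: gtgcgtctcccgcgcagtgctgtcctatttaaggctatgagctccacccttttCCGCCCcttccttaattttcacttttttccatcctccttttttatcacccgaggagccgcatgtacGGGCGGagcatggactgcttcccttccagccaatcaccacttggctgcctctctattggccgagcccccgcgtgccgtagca
Per2: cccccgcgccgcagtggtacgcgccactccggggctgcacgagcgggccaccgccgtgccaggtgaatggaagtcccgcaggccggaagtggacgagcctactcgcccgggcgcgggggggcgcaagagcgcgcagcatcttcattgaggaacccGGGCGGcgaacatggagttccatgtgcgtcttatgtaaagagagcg
Nr1d2: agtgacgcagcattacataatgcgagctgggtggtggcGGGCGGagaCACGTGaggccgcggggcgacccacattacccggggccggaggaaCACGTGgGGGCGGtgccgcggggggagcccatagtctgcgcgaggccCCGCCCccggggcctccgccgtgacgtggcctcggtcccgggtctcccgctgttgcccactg

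*Tef* and *Nr1d2* each held 2 copies of CACGTG, and none of these 5 windows held AGGTCA. The other set consists of *Rnf44* (chr13:54693943-54694143 on the minus strand), *Raly* (chr2:154791096-154791296 on the plus strand), *Psip1* (chr4:83486506-83486706 on the minus strand), *Zfp219* (chr14:52019910-52020110 on the minus strand) and *Calm3* (chr7:16924279-16924479 on the minus strand), which are among the strongest promoter regions of all.
Rnf44: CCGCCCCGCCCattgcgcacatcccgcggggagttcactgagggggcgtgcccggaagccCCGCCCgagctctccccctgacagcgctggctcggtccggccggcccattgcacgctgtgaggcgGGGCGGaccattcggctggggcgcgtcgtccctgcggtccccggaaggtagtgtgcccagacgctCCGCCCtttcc
Raly: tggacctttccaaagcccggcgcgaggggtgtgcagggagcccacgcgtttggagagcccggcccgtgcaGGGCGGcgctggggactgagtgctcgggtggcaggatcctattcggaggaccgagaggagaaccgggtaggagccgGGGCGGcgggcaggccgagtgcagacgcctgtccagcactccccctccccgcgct
Psip1: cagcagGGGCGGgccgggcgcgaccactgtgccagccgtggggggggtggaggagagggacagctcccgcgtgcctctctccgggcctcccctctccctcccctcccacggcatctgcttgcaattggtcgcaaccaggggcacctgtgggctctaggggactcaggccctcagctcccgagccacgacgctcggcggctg
Zfp219: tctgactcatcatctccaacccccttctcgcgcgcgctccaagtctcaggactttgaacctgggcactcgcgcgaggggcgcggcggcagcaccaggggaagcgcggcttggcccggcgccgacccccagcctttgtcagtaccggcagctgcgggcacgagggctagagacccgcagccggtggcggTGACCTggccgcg
Calm3: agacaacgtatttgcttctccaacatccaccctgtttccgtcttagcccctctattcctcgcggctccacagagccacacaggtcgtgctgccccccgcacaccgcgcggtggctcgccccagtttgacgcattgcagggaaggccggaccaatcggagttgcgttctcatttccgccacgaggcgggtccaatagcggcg

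None of these 5 windows contained CACGTG, and AGGTCA occurred once, on the opposite strand at *Zfp219*. GC boxes were present in 3 of them, with 5 copies at *Rnf44*.

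REV-ERBα peaks were stronger at promoters than elsewhere in both replicates. The −log10 p of a peak, which the peak caller computes from its reads against input DNA, had a median of 5.59 in replicate 1 and 6.12 in replicate 2 at promoter regions, against 2.52 and 2.72 at the other REV-ERBα regions. The median fold enrichment over input was 3.32 and 3.48 at promoters and 2.23 and 2.32 elsewhere. The lower −log10 p of the replicates, called strength here, had a median of 4.67 at promoter regions (quartiles 2.72 and 15.1, highest 87.7) and 2.30 at the others (quartiles 1.95 and 3.02). A −log10 q of at least 1.3 in both replicates was reached by 145 promoter regions (44.3%) and by 62 other regions (6.62%). Of the 20 strongest REV-ERBα regions of all, 17 were promoter regions, and of the 100 strongest, 86. Because the regions were required to be in both REV-ERBα lists, these values describe them and were not tested.

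**Figure D1:**
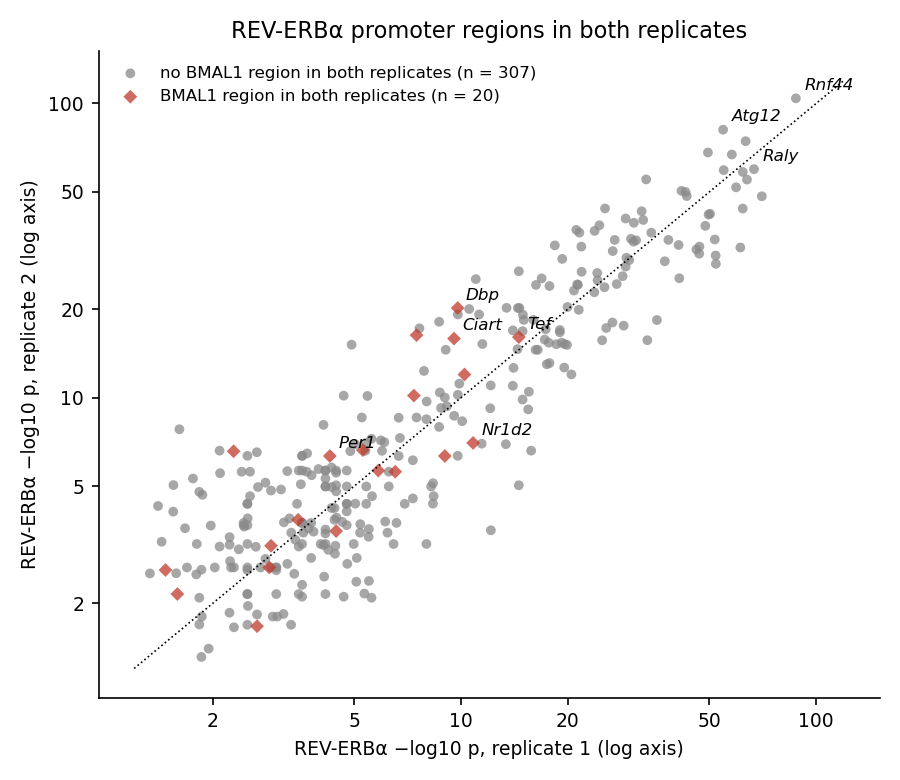
REV-ERBα −log10 p of each of the 327 promoter regions in replicate 1 (horizontal, log axis) and replicate 2 (vertical, log axis); diamonds are the 20 regions that overlap a BMAL1 region present in both BMAL1 replicates, circles the other 307, and the dotted line marks equal values. Regions with the highest values, such as Rnf44 at 87.7 and 104.1, are circles, and the diamonds lie at or below 14.5 in replicate 1.

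The replicates ranked the promoter regions alike. The Spearman correlation between replicates in −log10 p was 0.86 across the 327 regions and 0.44 across the 936 other regions, where the points share 2 libraries and are not independent. Replicate 2 gave the higher value at 172 promoter regions. The summits of the replicates lay a median of 74 bp apart at promoters and within 100 bp of each other at 193 of them (59%), whereas elsewhere the median was 240 bp and the share 23.3%.

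REV-ERBα summits at promoters clustered immediately upstream of the TSS. The summit of the stronger peak lay at a median of −84 bp from the TSS (quartiles −209 and 118 bp), upstream at 202 regions and at or downstream of the TSS at 125. It was within 100 bp of the TSS at 92 regions and within 250 bp at 213. By annotation, 124 summits lay upstream of a gene or between genes, 101 in an intron, 88 in an untranslated exon and 14 in a coding exon. Summits of the 82 strongest regions lay closer to the TSS, at a median distance of 129.5 bp, than those of the 81 weakest, at 221 bp. A TSS of another protein-coding gene on the opposite strand was located within 1000 bp of the region midpoint for 43 regions (13.1%). For all protein-coding genes, counted from the TSS of each gene, the share was 11.3%. At these 43 regions REV-ERBα reached a median −log10 p of 13.4 and 15.7 in the replicates, compared with 5.23 and 5.61 at the other 284. Whether the gene pairs lie head to head was not examined.

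**Figure D2:**
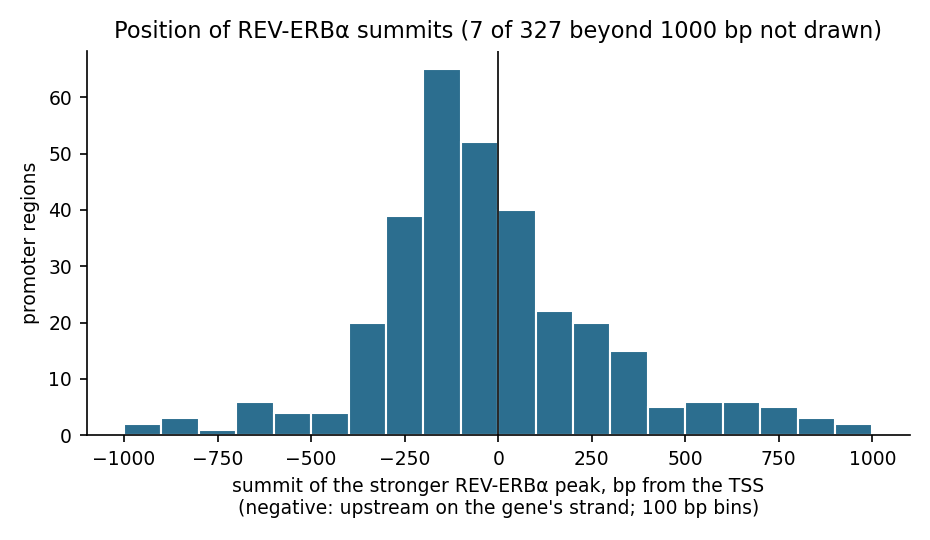
Distance in bp from the nearest protein-coding TSS to the summit of the stronger REV-ERBα peak (horizontal, negative upstream, 100 bp bins) and the number of promoter regions in each bin (vertical). Most summits fall within 250 bp of the TSS (213 of 327), and 202 lie upstream.

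The sequence at these summits was rich in G+C and in CpG dinucleotides, as is usual for promoters. The 201 bp windows had a median G+C content of 64.2% and a median ratio of observed to expected CpG of 0.80. At other REV-ERBα summits these were 46.8% and 0.15, at all protein-coding TSSs 58.7% and 0.60, and at TSSs with an RNAP2 region 66.7% and 0.89.

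The strongest promoter regions belonged to genes outside the clock. At *Rnf44* (ENSMUSG00000034928, chromosome 13), a RING finger gene, the region spans 54693349 to 54694463 in GRCm38, with its summit at −136 bp from the TSS. The REV-ERBα peaks reached −log10 p values of 87.7 (replicate 1) and 104.1 (replicate 2), with a fold enrichment of 14.2 and 17.4. No BMAL1 peak was listed there in either replicate, and RNAP2 had a peak in replicate 1 alone (−log10 p 3.77). The other region of *Rnf44*, at a downstream TSS, was weak (2.81 and 2.83).

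*Raly*, an hnRNP gene, had REV-ERBα values of 66.8 and 59.8, with 34.4 and 15.8 for RNAP2. *Psip1*, the gene of the chromatin-binding protein LEDGF, had 62.1 and 58.5, with 5.65 and 2.60 for RNAP2. At both genes, both REV-ERBα replicates exceeded 58, and BMAL1 was not listed.

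Further regions among the 20 strongest lay at *Zfp219*, *Ss18*, *Calm3*, *Atg12*, *Cenpn*, *Pik3r3*, *Ube2b*, *Sept11*, *Flcn*, *Tspan4*, *Hdac2*, *Lrpprc*, *Prkci*, *Map7d1*, *Cpsf2* and *Arpc4*. Among these genes, *Ss18* encodes a subunit of the BAF chromatin remodelling complex, *Calm3* calmodulin, *Ube2b* a ubiquitin-conjugating enzyme, *Cpsf2* a factor of mRNA 3′ end processing, *Arpc4* a subunit of the actin-nucleating ARP2/3 complex, and *Flcn* folliculin, a regulator of mTORC1 and AMPK signalling. *Zfp219* and *Atg12* were among the highest, at 57.9 and 67.1 and at 54.7 and 81.4. The lowest of the 20, *Arpc4*, still had 38.4 and 34.4. Of these 20 regions, *Prkci* had a BMAL1 peak, in replicate 2 at a −log10 p of 1.34, and the other 19 had none in either list. Of all 327 promoter regions, 265 had none. RNAP2 peaks were listed in both replicates at 17 of them, in replicate 1 alone at *Rnf44* and *Arpc4*, and in neither at *Lrpprc*.

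**Figure D3:**
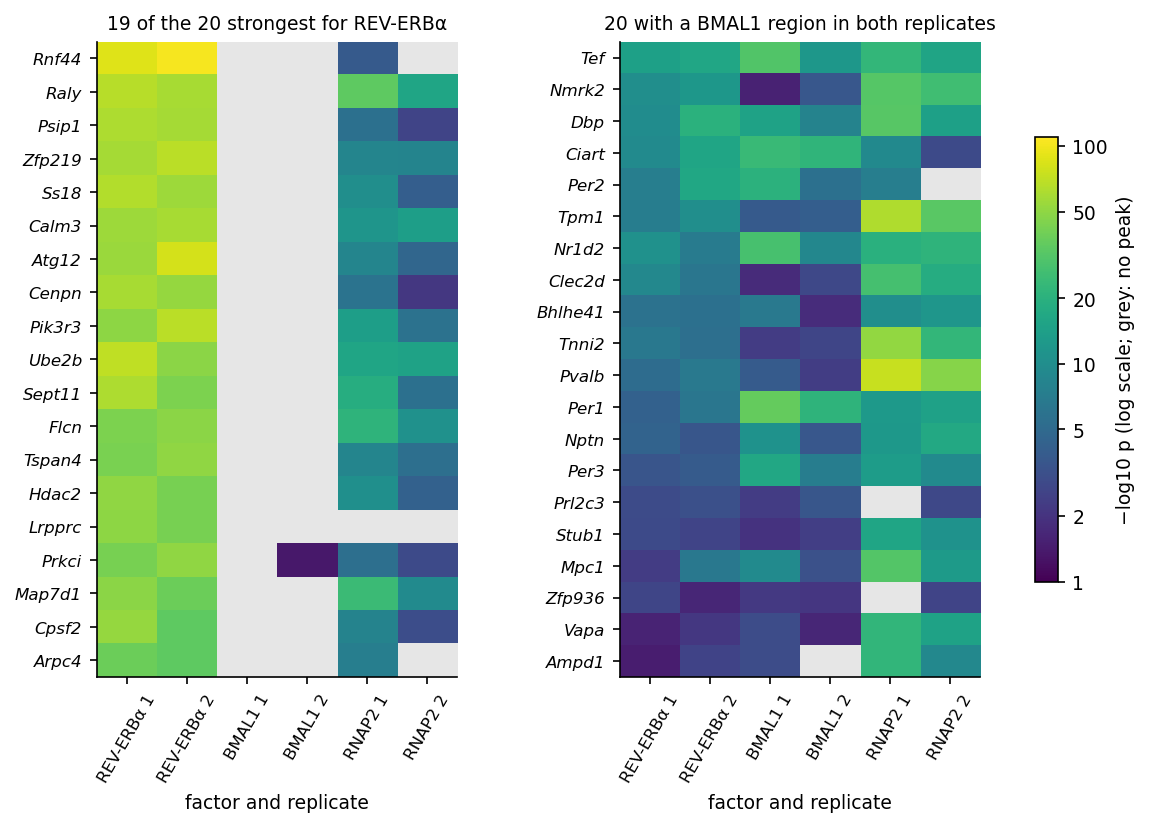
Peak −log10 p in the 6 lists (colour, log scale, grey where no peak is listed) for 19 of the 20 strongest REV-ERBα promoter regions (left) and for the 20 promoter regions that overlap a BMAL1 region present in both replicates (right), each ordered by REV-ERBα strength. The BMAL1 columns are empty on the left except for Prkci in replicate 2 (1.34), and REV-ERBα values on the right reach 20.2 at most.

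To ask whether REV-ERBα sites at promoters coincide with polymerase and with BMAL1, the BMAL1 and RNAP2 lists, which were not used to choose the regions, were read at each of them. RNAP2 accompanied most promoter regions. An RNAP2 peak was listed at 301 (92%) in replicate 1 and 276 (84.4%) in replicate 2, and an RNAP2 region present in both replicates overlapped 265, or 81% (exact 95% interval 76.4 to 85.1%), compared with 32.9% of all 1263 REV-ERBα regions. The share was 16% for the other REV-ERBα regions (22.4% in replicate 1 and 27.4% in replicate 2), with 36.8% at 1 to 10 kb and 7.53% beyond 10 kb. Windows of the same median width, 777 bp, centred on the TSSs of all protein-coding genes overlapped an RNAP2 region in 26.5% of cases (39.1% and 32.4% for the replicates). The difference between promoter and other regions was 65.0 percentage points, and 69.6 with RNAP2 replicate 1 alone and 57.0 with replicate 2 alone. With 2 libraries per factor an exact permutation test over samples cannot reach 0.05, no other test was made, and intervals over regions cover the counting of regions, not the spread between animals.

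BMAL1 was listed at a minority of the same regions, though more often than at TSSs in general. Its peaks were listed at 45 promoter regions (13.8%) in replicate 1 and at 40 (12.2%) in replicate 2, and a BMAL1 region present in both replicates overlapped 20, or 6.12% (exact 95% interval 3.78 to 9.29%), against 7.68% of all REV-ERBα regions. The share was 8.23% for the other REV-ERBα regions (19.1% and 20.9% for the replicates), 14% for those at 1 to 10 kb and 5.87% beyond. The difference between promoter and other regions was −2.11 percentage points, and −5.36 with BMAL1 replicate 1 alone and −8.71 with replicate 2 alone. A normal approximation over regions gives −2.11 a 95% interval of 3.14 points to each side. That interval covers the counting of regions only and is not a test. For comparison, 0.273% of TSS windows of all protein-coding genes overlapped a BMAL1 region in both replicates (1.71% and 5.78% for the replicates). No BMAL1 peak of either list was present at 265 promoter regions.

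**Figure D4:**
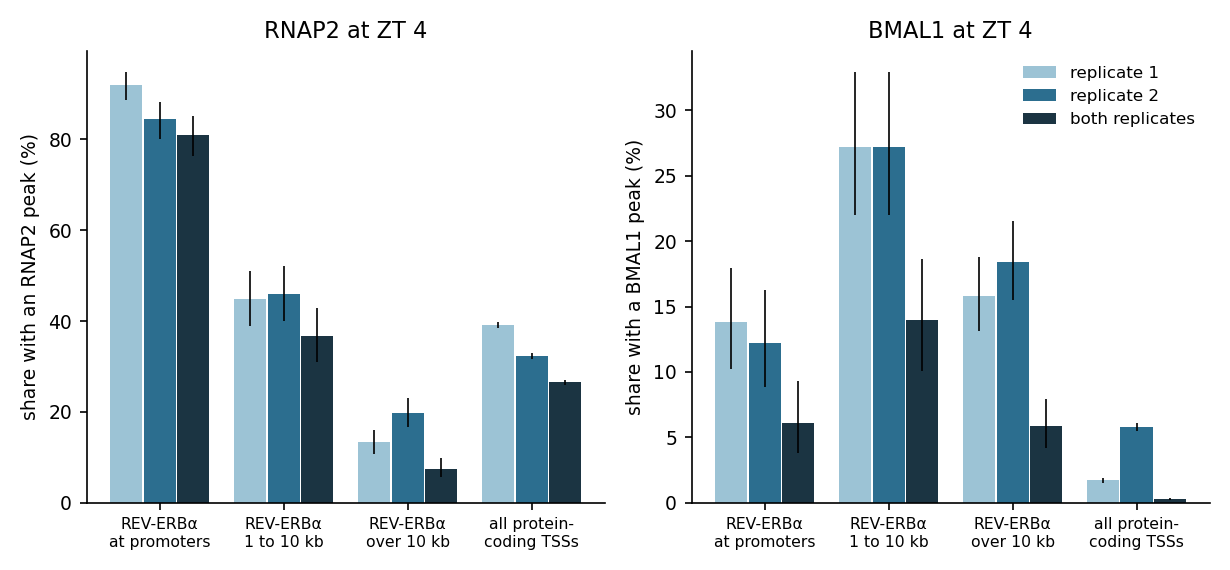
Percentage of REV-ERBα regions at promoters (327), at 1 to 10 kb (272) and beyond 10 kb (664), and of TSS windows of all 21938 protein-coding genes, that overlap an RNAP2 peak (left) or a BMAL1 peak (right), for each replicate list and for regions present in both; error bars are exact 95% binomial intervals over regions. For both replicates together, RNAP2 is at 81% at promoters and 7.53% beyond 10 kb, and BMAL1 is highest at 1 to 10 kb (14%).

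Strong REV-ERBα regions differed in BMAL1 between promoters and other sites. Among regions with a REV-ERBα −log10 q of at least 1.3 in both replicates, BMAL1 regions overlapped 9 of 145 at promoters (6.21%, exact 95% interval 2.88 to 11.5%) and 25 of 62 elsewhere (40.3%, 28.1 to 53.5%). Each BMAL1 replicate gave the same order, with 9.66% against 71% in replicate 1 and 8.97% against 58.1% in replicate 2. RNAP2 differed less, at 77.9% and 53.2%. Of the 82 strongest promoter regions, with a strength of 15.1 or more, 0 overlapped a BMAL1 region in both replicates (exact upper limit 4.40%), while 6 of the 11 other REV-ERBα regions of that strength did. At promoters the share with BMAL1 did not follow REV-ERBα strength steadily, with 0, 13.4, 4.88 and 6.17% in 4 groups of 82, 82, 82 and 81 regions from the strongest to the weakest, and it was similar in the 145 regions and in all 327. The second of these groups held 11 of the 20 BMAL1 overlaps, including *Tef*, *Dbp*, *Ciart* and *Per2*.

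REV-ERBα regions were more frequent at TSSs with more polymerase. A REV-ERBα region overlapped 262 of the 5814 TSS windows with an RNAP2 region in both replicates (4.51%) and 57 of the 16124 without (0.354%). When the 5814 windows were divided into 5 groups of 1162 or 1163 by RNAP2 −log10 p, the share with a REV-ERBα region was 9.46% in the highest group, then 4.39%, 3.44%, 2.84% and 2.41% in the lowest. Within the promoter regions, however, REV-ERBα strength did not increase with RNAP2: the Spearman correlation was −0.07 over the 301 regions with a peak in RNAP2 replicate 1 and −0.14 over the 276 with a peak in replicate 2. How far general accessibility of active promoters contributes to the REV-ERBα peaks was not tested.

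By the lower RNAP2 −log10 p of the replicates, the highest values lay at the regions of *Tex14*, *Tob1*, *Polr2a*, *Jund* and *Actg1*. The first is named after *Tex14* only because its TSS is nearest. Its midpoint lay at −731 bp and its summit in an intron, which can be that of any protein-coding gene. *Polr2a*, which encodes the largest subunit of RNAP2 itself, had an RNAP2 −log10 p of 152.3 and 89.5 and a REV-ERBα −log10 p of 14.0 and 11.0, with no BMAL1 peak. *Tob1*, an antiproliferative gene, had 104.3 and 98.0 for RNAP2, with 8.67 and 7.95 for REV-ERBα. At the other extreme, 14 promoter regions had no RNAP2 peak in either list, and 3 of these were among the 100 strongest for REV-ERBα. They were *Lrpprc*, a regulator of mitochondrial mRNA (REV-ERBα 49.8 and 41.9), *Ddx54*, a DEAD box helicase (24.2 and 25.0), and *Cwc27*, a spliceosome-associated protein (19.2 and 15.4), none of which had a BMAL1 peak.

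Clock genes formed the group with most BMAL1. A gene was assigned a promoter region when its TSS was nearest, or when it lay within 1000 bp on the opposite strand, and by this measure 370 of 21938 protein-coding genes (1.69%) and 271 of the 5814 with an RNAP2 region at the TSS (4.66%) had one. Of 25 clock genes, 9 (36%) had a region: the period genes *Per1*, *Per2* and *Per3*, *Nr1d2* (REV-ERBβ), the PAR bZIP activators *Dbp* and *Tef*, the E-box repressors *Bhlhe41* and *Ciart*, and the deubiquitinase gene *Usp2*. *Arntl* (BMAL1) and *Clock* were not among these 9, although the study used their promoters as positive control loci for REV-ERBα at ZT 8. The clock list and the lists that follow were drawn up with results of these data known, and the study itself names several of their genes, so that their counts are no independent evidence. The counts include regions with a −log10 q under 1.3 in either REV-ERBα list, such as *Per3* (0 and 0) and *Gapdh* (0.77 and 0.22).

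At 8 of the 9 clock genes a BMAL1 region present in both replicates overlapped the REV-ERBα region. In replicates 1 and 2, the region of *Tef* (chromosome 15, 81810164 to 81812034) reached 14.5 and 16.1 on the −log10 p scale for REV-ERBα, 30.8 and 12.0 for BMAL1, and 22.5 and 15.4 for RNAP2. *Ciart* had 9.55 and 15.9 for REV-ERBα, 24.1 and 21.7 for BMAL1, and 9.34 and 2.86 for RNAP2. Both had peaks in all 6 lists, and both ranked below the 82 strongest promoter regions for REV-ERBα.

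*Per1* (chromosome 11, 69094663 to 69095196) showed the highest BMAL1 value of replicate 1 at any promoter region, 36.5, with 21.2 in replicate 2, while its REV-ERBα values of 4.27 and 6.33 were near the median. *Nr1d2* had 10.8 and 7.01 for REV-ERBα and 28.1 and 8.80 for BMAL1. *Dbp* had 9.78 and 20.2 for REV-ERBα, 15.1 and 8.25 for BMAL1, and 32.2 and 14.5 for RNAP2. At *Dbp* the REV-ERBα summit lay at −1053 bp from the TSS nearest to the region midpoint, and the merged region was 3124 bp wide. The annotation placed this summit in an intron, which can be that of any protein-coding gene.

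The period gene *Per2* had 7.49 and 16.3 for REV-ERBα and 20.5 and 5.68 for BMAL1, with an RNAP2 peak in replicate 1 alone (7.49). *Per3* had 3.48 and 3.84 for REV-ERBα against 16.6 and 7.30 for BMAL1. *Bhlhe41* was the weakest of the 8 for BMAL1 in both replicates (6.71 and 1.83), with 5.84 and 5.65 for REV-ERBα. *Usp2* had a weak REV-ERBα region (2.66 and 1.83) and no BMAL1 peak. By REV-ERBα strength the 9 clock promoters ranked from 90 to 303 of the 327. By the lower BMAL1 −log10 p of the replicates, the 5 highest among all promoter regions were *Ciart*, *Per1*, *Tef*, *Nr1d2* and *Dbp*.

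The other 12 promoter regions with a BMAL1 region in both replicates lay at *Nmrk2*, *Tpm1*, *Clec2d*, *Tnni2*, *Pvalb*, *Nptn*, *Prl2c3*, *Stub1*, *Mpc1*, *Zfp936*, *Vapa* and *Ampd1*. *Nptn*, which encodes the cell adhesion protein neuroplastin, had a BMAL1 −log10 p of 11.0 and 3.56 and *Mpc1*, a subunit of the mitochondrial pyruvate carrier, of 9.42 and 3.18. The other 10 had BMAL1 values of at most 4.06 in both lists. *Prl2c3* and *Zfp936* belong to gene families with near-identical members, where removal of reads with several positions leaves the counts uncertain. A peak in each of the 6 lists was present at 20 promoter regions. They comprised 7 clock genes, and also *Pfkfb3*, *Ttn*, *Trim63* and *Mylk4*, at which both BMAL1 lists had peaks that did not form a BMAL1 region with each other inside the REV-ERBα region. At *Ampd1* the reverse held, since the BMAL1 region reached into the REV-ERBα region through its replicate 1 peak alone.

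Of 52 sarcomere and muscle fibre genes, 10 (19.2%) had a REV-ERBα region, with strengths from 1.47 to 7.36. Each gene had at least 1 region with RNAP2 in both replicates, as had 81% of all promoter regions. *Tpm1*, encoding tropomyosin, had 7.36 and 10.2 for REV-ERBα, 3.82 and 4.06 for BMAL1, and 62.5 and 33.2 for RNAP2. *Mef2a*, a transcription factor of muscle differentiation, had 15.8 and 6.60 for REV-ERBα, with no BMAL1 peak. *Tnni2*, fast troponin I, had 6.52 and 5.60, and *Ryr1*, the calcium release channel, 5.59 and 7.24. The list further held *Mylk4*, *Mybpc2*, *Tnnc2*, *Ttn*, *Pvalb* and *Ampd1*. The 5 widest promoter regions were those of *Tpm1* (11168 bp), *Nmrk2* (8044 bp), *Mylk4* (5018 bp), *Ttn* (3207 bp) and *Dbp* (3124 bp), of which *Tpm1*, *Mylk4* and *Ttn* belong to this list. A wide region offers more sequence for other peaks to overlap, and the part of width in these overlaps was not tested. *Ttn*, the gene of the giant spring protein titin, accounted for 4 separate regions at annotated TSSs, of which the strongest had 6.11 and 3.79 for REV-ERBα. Of the 4, only the strongest had RNAP2 peaks in both lists.

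Immediate early genes had regions at 6 of 26 (23.1%), each with RNAP2 in both replicates. The strongest was *Fos*, a subunit of AP-1, with 14.5 and 26.9 for REV-ERBα, no BMAL1 peak, and 15.8 and 16.4 for RNAP2. *Fosl2*, another AP-1 subunit, had 5.45 and 10.1, and *Egr1*, a zinc finger factor, 3.68 and 6.46. *Jund* had 3.24 and 5.62 with very high RNAP2 (81.8 and 71.5). *Klf9* and *Dusp1*, both known glucocorticoid targets, were weaker for REV-ERBα (4.41 and 2.94, and 2.64 and 3.11).

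In the ubiquitin and proteasome list 6 of 50 genes (12%) had a region. The strongest lay near the TSSs of *Psma7*, a proteasome subunit, and *Ss18l1*, whose TSS is nearer, with 21.8 and 32.6 for REV-ERBα. Its summit was 58 bp downstream of the *Ss18l1* TSS, in an untranslated exon. *Ubb*, a polyubiquitin gene, had 6.73 and 7.29. The muscle ubiquitin ligases *Trim63* (MuRF1) and *Fbxo32* (atrogin-1), markers of atrophy, had 3.57 and 6.34 and 1.55 and 4.09, and *Stub1* had 2.88 and 2.64.

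Autophagy and lysosome genes had regions at 5 of 46 (10.9%), and at 5 of the 25 with an RNAP2 region at the TSS. *Atg12*, a ubiquitin-like protein conjugated to ATG5, stood far above the rest. *Atg101*, a subunit of the ULK kinase complex, had 17.2 and 15.8, and *Ulk2*, a kinase that starts autophagy, had 8.33 and 4.36. *Gabarap* and *Tfeb* had a strength of 1.79 and 2.54, and *Tfeb*, a regulator of lysosomal genes, had a BMAL1 peak (1.76 in replicate 2), unlike the other 4.

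Chromatin modifiers had regions at 8 of 81 (9.88%), none with a BMAL1 peak in either list. Such a peak was also absent from 265 of all 327 promoter regions. *Hdac2*, a class I histone deacetylase, had 50.2 and 42.2 for REV-ERBα. *Kmt5b*, a histone H4 methyltransferase, had 31.1 and 34.3 together with 72.1 and 33.5 for RNAP2, and *Eed*, a subunit of the Polycomb complex PRC2, had 35.6 and 18.4. *Kdm3a* had 17.7 and 13.1. The remaining regions, at *Brd2*, *Kmt2d*, *Ep300* and *Kmt2c*, had strengths from 1.43 to 5.11.

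Of the genes of glucose and glycogen metabolism, 6 of 44 (13.6%) had a region, at *Aldoa*, *Gapdh*, *Pfkfb3*, *Eno3*, *Slc2a4* and *Pygm*, with strengths from 1.69 to 4.88. At *Aldoa*, the strongest of the 6, the REV-ERBα −log10 q was 0.62 in replicate 1 and 2.13 in replicate 2. *Slc2a4*, the gene of the insulin-responsive glucose transporter GLUT4, had 4.42 and 3.13 for REV-ERBα, with RNAP2 at 15.2 and 13.9. In lipid metabolism 2 of 51 (3.92%) had one. *Dgat2*, which catalyses the last step of triglyceride synthesis, was strong, with 21.4 and 19.9 for REV-ERBα, a BMAL1 peak of 3.40 in replicate 1 alone, and 18.8 and 10.3 for RNAP2. *Plin4*, a lipid droplet protein, had 2.44 and 3.75. Amino acid transport and metabolism had 1 of 34 (*Gpt*), mitochondrial function 1 of 60 (*Vdac1*, 1.67%), heat shock and chaperones 2 of 38 (*Hsp90ab1* and *Dnajb5*), nuclear receptors and corepressors 1 of 42 (*Tbl1xr1*), and the p53 pathway 3 of 29 (*Ddit4* and *Phlda3* among them). Of the 60 mitochondrial genes, 44 had an RNAP2 region at the TSS.

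The regions just inside the limit of 1000 bp were *Kmt2d* at 997 bp from the TSS, *Arhgef19* at 981 bp and *Nfe2l2* at 949 bp, with REV-ERBα values of 3.97 and 5.72, 3.02 and 2.15, and 2.68 and 4.96. Those just outside were *Slc6a9* at 1007 bp, *Trp53* at 1015 bp and *Ntf5* at 1040 bp, with 7.22 and 5.65, 7.31 and 6.35, and 5.41 and 5.65.

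Known binding elements of REV-ERBα were not frequent at the summits. The core hexamer AGGTCA was found on either strand in 31 of 327 windows of 201 bp (9.48%), and in 11 of the 100 strongest, compared with 14.3% at other REV-ERBα summits, 9.24% at all protein-coding TSSs and 6.67% at TSSs with an RNAP2 region. TAGGTCA, a part of the same matches, was found in 4 windows (1.22%), against 1.71%, 1.36% and 0.826% in these sets. The longer monomer element of REV-ERB and ROR was matched in 1 window (0.306%), against 0.107%, 0.187% and 0.0688%. The tandem element DR2 was matched in 0 windows, with 0 of 936 other REV-ERBα summits and 3 of 21938 TSSs. So strict a consensus is too rare to compare these sets. The study, searching all its REV-ERBα peaks with motif discovery tools, reported DR2 among the top-ranking motifs. A match of letters is not a bound site, and its absence from these windows says nothing of the factor.

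The E-box CACGTG was found in 24 windows (7.34%), against 2.03% at other REV-ERBα summits, 5.68% at all TSSs and 8.27% at TSSs with RNAP2. It was present at 5 of the 20 promoter regions with a BMAL1 region (25%) and at 19 of the other 307 (6.19%). The GC box GGGCGG, the element of SP and KLF factors, was present in 149 windows (45.6%), against 6.52% at other summits, 40% at all TSSs and 64.6% at TSSs with RNAP2. CCAAT was found in 18%, against 28.5%, 28.2% and 30.1%, and the ETS element CCGGAAG in 7.95%, against 0.962%, 9.6% and 18.7%. Thus GC box, CCAAT and ETS elements were each less frequent at REV-ERBα summits than around TSSs with RNAP2. TSS windows are centred on the TSS and REV-ERBα windows at a median of −84 bp from it, and the part of this offset in the differences was not tested. Of the muscle elements, the myogenic E-box CAGCTG was present in 11.3%, against 13.1% at other summits, 12.4% at all TSSs and 10.4% at TSSs with RNAP2. The MEF2 element was present in 2.14%, against 5.02%, 1.24% and 0.98%.

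**Figure D5:**
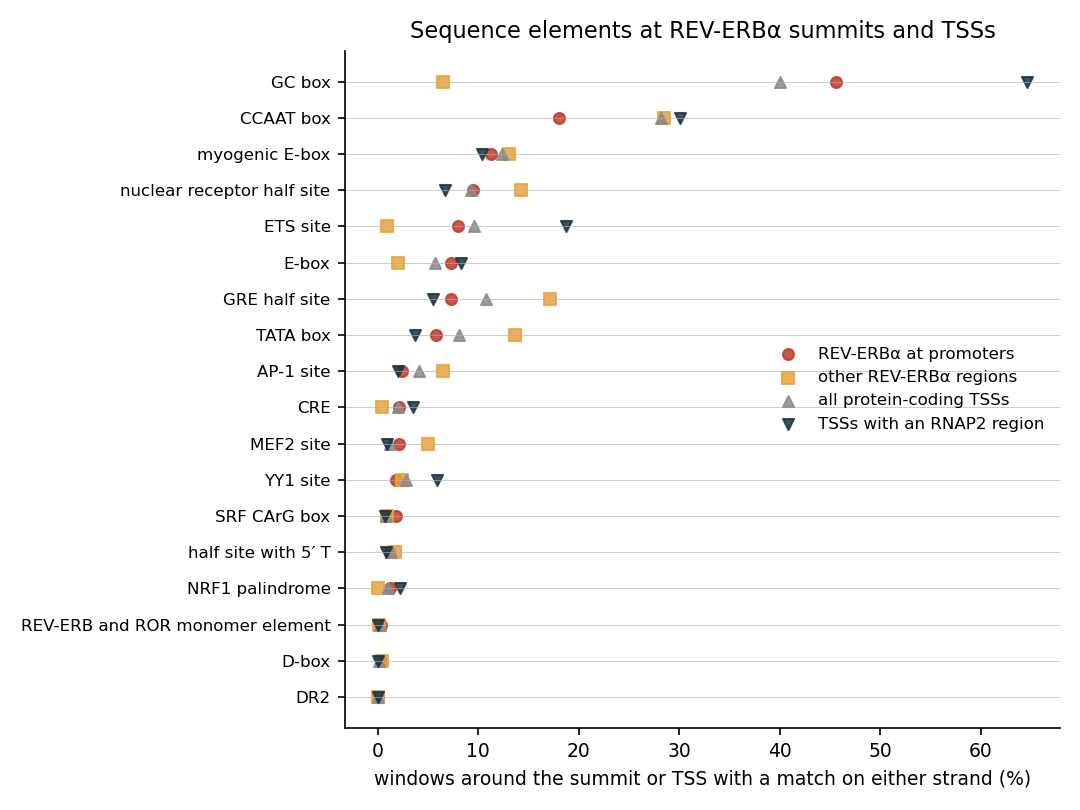
Percentage of 201 bp windows with at least 1 match on either strand (horizontal) for each of 18 sequence elements (vertical), at REV-ERBα summits of promoter regions, at other REV-ERBα summits, at all protein-coding TSSs and at TSSs with an RNAP2 region. The GC box separates promoter summits (45.6%) from other summits (6.52%), and the nuclear receptor hexamer AGGTCA lies between 6.67% and 14.3% in all 4 sets.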

How the data were processed

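ChIP-seq peaks of REV-ERBα (ZT 8), BMAL1 and RNAP2 (ZT 4) from gastrocnemius, 2 replicates each, were analysed. The authors aligned reads to mm10 with BWA, discarded duplicate and multiply mapped reads, brought replicates of a factor to like depth and called peaks per sample with Macs2 2.1.1, using input DNA as control and an uncorrected p-value cutoff of 0.05. Each deposited list gives peak and summit coordinates, a fold enrichment (a linear ratio of signal to local background) and −log10 p and −log10 q, all written by Macs2. The deposited score is a rounded −log10 p and was not used. Input reads and density tracks were not used here, so the depth behind a peak is unknown.

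Peaks of both replicates overlapping by at least 1 bp were merged, and strength was the lower −log10 p. A region in both replicates has a peak of each list, and a promoter region overlaps it when at least 1 bp is shared. TSSs were those of protein-coding transcripts in GENCODE M21, and the GRCm38 sequence was read 100 bp to each side of the stronger summit. Motifs were consensus matches on both strands. Shares have exact (Clopper-Pearson) intervals that cover counting of regions only. No test was made, since replicates, not regions, are the samples. A p-value over regions would not measure the spread between the 2 libraries of a factor.

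The 20 strongest regions, those in the gene lists, the extremes for BMAL1, RNAP2 and width, the regions nearest to the distance limit and strong regions without RNAP2 were named, except some genes that are not reported here. Members and lists were chosen with earlier results of these data known, and the division by strength after seeing the peaks. Alternatives were other distances, TSS sets, thresholds, overlaps and list lengths, and leaving out each replicate. The code (Python 3.11.15, numpy 2.4.6, scipy 1.17.1, matplotlib 3.10.9) was tested on simulated peaks and gave the planted answers.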

Additional observations from a re-analysis of the deposited data

How the results depend on the processing

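No paired analysis was possible because the results come from no test; differences within each library are given with the results. When REV-ERBα peaks with a −log10 q under 1.3 were removed before merging, 146 promoter regions were formed, where 145 of the 327 reached that value in both lists. That setting gave 9 regions with a peak in all 6 lists, a median strength of 16.1, and differences between promoter and other regions of 25.6 percentage points for RNAP2 and −32.5 for BMAL1. Requiring 3 or more for −log10 p throughout gave an RNAP2 share of 72.7%, 7 regions in all 6 lists, a median strength of 8.75 and an RNAP2 difference of 40.8 points. A limit of 500 bp gave 13 regions in all 6 lists and a median strength of 5.38, equal list lengths gave 13 such regions, and a median strength of 5.80 was obtained with 5′ ends of genes alone and 5.38 with an overlap of at least 50%. Leaving out 1 library at a time gave 327 to 1244 promoter regions, a BMAL1 share of 1.85 to 13.8%, an RNAP2 share of 43.7 to 92%, 20 to 39 regions in all 6 lists (or in the 5 left), a median strength of 2.52 to 4.67, an RNAP2 difference of 42.6 to 69.6 points and a BMAL1 difference of −8.71 to 1.66 points. The extremes for the number of regions (1244 and 1128), the strength and the RNAP2 share came from leaving out REV-ERBα replicate 1 or 2, where by construction all peaks of the remaining list enter, and the BMAL1 share was above 12% when BMAL1 replicate 1 (12.2%) or 2 (13.8%) was left out. Thus the direction for RNAP2 was the same under all 14 alternatives, and that for BMAL1 changed sign with either REV-ERBα list left out and at a limit of 2000 bp (0.22 points). Peak lists without reads per peak limit every value, since a missing peak cannot be told from 1 just under the cutoff.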

Other observations

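Short words at the summits were also counted without a factor in mind. All words of 6 bases, read on both strands, were ranked at promoter regions on odd-numbered chromosomes against TSS windows with an RNAP2 region, by the difference of the shares and then by their ratio, and the leading words were read again on the even-numbered chromosomes and X, which hold 130 promoter regions. C-rich words led by difference, and CTCCCC was found in 45.4% of those 130 windows against 29.9% of TSS windows with RNAP2, GGGGGA in 34.6% against 20.3%, and CCCTCC in 48.5% against 38.9%. By ratio the first was GTACCA, with 7.69% (10 windows) against 2.48%, and 12.2% against 2.72% on the odd-numbered chromosomes. AGGGAT was present in 13.1% against 5.04%, whereas AAATAG, chosen in the same way, was present in 3.85% against 3.86%. The windows differ in their distance from the TSS, and no test was made.

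Of all promoter regions, 12 had no peak in any of the 4 BMAL1 and RNAP2 lists, and 248 had an RNAP2 region but no BMAL1 region in both replicates.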
